A study of Mus musculus with 3 samples.

Results

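Potassium channel genes were taken as the autosomal protein-coding RefSeq genes of mouse assembly GRCm38.p6 (mm10) whose symbols start with Kcn. There were 92 of them among 20665 autosomal protein-coding genes; a further 2 lie on chromosome X, which was not analysed here, and 4 non-coding genes with such symbols were not counted as members. Each gene has a low and a high end by coordinate, and the mean coverage over 1 kb to each side of an end was the measurement. Where the strand was known from the promoter table, the end on the upstream side is called the start end; an annotated start in that table can lie further inside the gene. Gene bodies, the bins more than 1 kb inside both ends, were measured apart and existed for 91 members. The list follows from the symbols alone, and it was taken up with earlier results of these data known.

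MBD-seq, which sequences the DNA fragments bound by a methyl-CpG-binding protein, had measured DNA methylation in 3 libraries of organoids grown from crypts of mouse proximal colon. All organoids came from male mice heterozygous for a Cre-activable BrafV600E allele (Braf+/LSL), taken at about 40 days of age, and all had 5 months of culture followed by 3 weeks in the medium named. The Braf Base medium library came from organoids given lentiviral Cre and selected for growth without niche factors (Base medium). Those of the Braf full medium library had the same Cre but were kept in full medium with Wnt3a, R-spondin, Noggin and EGF, and the EV library from organoids given the empty lentiviral backbone in the same full medium. Each group was a single library. No difference therefore has a replicate check, no p-value is given, and intervals cover counting error between 2 libraries only.

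Potassium channels let potassium ions cross membranes and thereby set the resting potential and shape electrical signals. Voltage-gated (Kv) channels open when the membrane depolarises, inward rectifiers and tandem-pore-domain (K2P) channels carry current near the resting potential, and other channels open with internal calcium or sodium. In colonic crypts, basolateral channels such as Kcnq1 with its partner Kcne3 and Kcnn4 are known to supply the driving force for chloride secretion, and apical Kcnma1 secretes potassium. Most other members are best known from neurons, heart and muscle.

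The promoters printed here, each 250 bases before to 50 bases after an annotated start, are RefSeq sequences of GRCm38.p6 and run 5′ to 3′ on the gene's own strand. CpG sites, the dinucleotides at which the captured methylation sits, are in capitals. The first 5 are CpG-dense promoters and Kcnj8 is a CpG-poor promoter, each with gained coverage within 1 kb of its start. That window is wider than the printed sequence, so the gain need not lie in the printed bases. Kcnk5 is a CpG-dense promoter that stayed nearly free of coverage.
Kcnd3, chr3:105451640-105451939, forward strand: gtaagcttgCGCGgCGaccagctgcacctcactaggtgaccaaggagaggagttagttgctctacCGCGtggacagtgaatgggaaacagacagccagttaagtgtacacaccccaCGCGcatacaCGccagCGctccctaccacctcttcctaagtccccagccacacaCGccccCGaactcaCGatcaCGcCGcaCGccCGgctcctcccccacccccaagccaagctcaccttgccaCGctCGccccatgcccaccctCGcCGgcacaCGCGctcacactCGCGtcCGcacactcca
Kcnd2, chr6:21215096-21215395, forward strand: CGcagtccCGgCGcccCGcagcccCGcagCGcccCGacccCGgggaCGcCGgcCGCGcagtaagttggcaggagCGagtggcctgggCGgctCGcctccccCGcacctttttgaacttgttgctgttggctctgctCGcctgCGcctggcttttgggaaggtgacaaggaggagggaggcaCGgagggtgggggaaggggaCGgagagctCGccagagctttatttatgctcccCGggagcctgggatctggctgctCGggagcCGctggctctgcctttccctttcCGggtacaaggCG
Kcna3, chr3:107035912-107036211, forward strand: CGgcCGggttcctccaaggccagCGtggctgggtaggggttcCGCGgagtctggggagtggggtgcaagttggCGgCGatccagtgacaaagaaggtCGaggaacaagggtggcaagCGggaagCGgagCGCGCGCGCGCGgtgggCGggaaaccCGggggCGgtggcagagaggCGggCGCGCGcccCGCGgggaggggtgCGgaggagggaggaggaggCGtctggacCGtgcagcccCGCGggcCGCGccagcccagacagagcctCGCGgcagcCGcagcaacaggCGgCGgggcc
Kcnk12, chr17:87797945-87798244, reverse strand: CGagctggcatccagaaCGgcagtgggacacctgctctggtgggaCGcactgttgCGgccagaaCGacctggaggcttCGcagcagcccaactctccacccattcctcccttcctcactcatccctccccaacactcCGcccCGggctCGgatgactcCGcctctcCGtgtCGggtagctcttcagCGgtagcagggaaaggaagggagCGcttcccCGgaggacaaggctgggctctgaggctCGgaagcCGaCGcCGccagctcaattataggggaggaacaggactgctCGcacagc
Kcnj6, chr16:94997647-94997946, reverse strand: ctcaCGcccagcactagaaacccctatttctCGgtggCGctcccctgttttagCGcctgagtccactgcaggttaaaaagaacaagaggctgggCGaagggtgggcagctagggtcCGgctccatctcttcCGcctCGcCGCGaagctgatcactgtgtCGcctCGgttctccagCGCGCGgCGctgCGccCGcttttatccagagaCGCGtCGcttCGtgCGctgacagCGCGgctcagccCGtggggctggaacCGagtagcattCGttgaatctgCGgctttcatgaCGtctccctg
Kcnj8, chr6:142571565-142571864, reverse strand: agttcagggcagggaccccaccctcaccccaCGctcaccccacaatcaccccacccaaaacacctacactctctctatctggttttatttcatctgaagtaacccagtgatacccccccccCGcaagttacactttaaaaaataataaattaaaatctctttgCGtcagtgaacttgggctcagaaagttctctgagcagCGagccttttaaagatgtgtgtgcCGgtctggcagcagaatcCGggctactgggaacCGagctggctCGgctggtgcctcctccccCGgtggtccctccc
Kcnk5, chr14:20181733-20182032, reverse strand: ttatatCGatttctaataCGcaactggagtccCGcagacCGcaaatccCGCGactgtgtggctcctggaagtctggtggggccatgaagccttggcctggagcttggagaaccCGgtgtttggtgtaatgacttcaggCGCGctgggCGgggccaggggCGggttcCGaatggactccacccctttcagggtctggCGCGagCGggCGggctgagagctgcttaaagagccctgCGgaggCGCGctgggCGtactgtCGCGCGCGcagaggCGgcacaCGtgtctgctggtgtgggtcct
They hold 25, 26, 37, 20, 30, 9 and 26 CpG sites in the order printed. The promoter table held a start for 68 of the 92 members, 93 starts in all.

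The 3 libraries held 14850571 read overlaps with 200-bp bins in Braf Base medium, 20914446 in Braf full medium and 12530155 in EV. The Braf full medium library had a raised background. Outside covered 1-kb tiles its mean coverage was 0.0452, against 0.00882 in EV, while Braf Base medium had 0.00813. Coverage here is overlaps per bin times the authors' scaling step of each library. A log2 ratio was taken with a pseudocount of 0.0597, the mean coverage per bin, which understates changes at low values, while folds are plain ratios of coverage. An end was called gained at a log2 ratio of at least 1 and lost at -1 or below, if the higher library reached a coverage of 0.119, and a gene was called if either end was. Methylation does not measure which genes the cells expressed, so the labelled tissue could not be checked by expression. The ends of 11 colon epithelium marker genes had a median coverage of 0.00674 in Braf Base medium, 0.069 in Braf full medium and 0.00684 in EV, and 1 of them, Cdx1, gained coverage over EV in both Braf libraries. Among markers of other cell types, 3 of 7 neural genes gained in Base medium over EV (Elavl3, Elavl4 and Sox10) and 2 in full medium over EV (Elavl3 and Sox10). Of 8 fibroblast and smooth muscle genes, Des gained in Base medium over EV, Tagln gained in full medium over EV, and Col1a1 was lost in both. None of 6 immune genes was called. The shares of all genes gained over EV were 6.19% in Base medium and 8.55% in full medium, and the shares lost 2.61% and 1.13%.

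Most potassium channel gene ends carried little methylation in any library. Of 184 ends, 124 stayed below the minimum of 0.119 in all 3 libraries, and 39 genes had both ends below it. At the other extreme, 26 ends of 24 genes were at or above it in all 3. Median coverage of the 184 ends was 0.0168 in Braf Base medium, 0.0668 in Braf full medium and 0.0137 in EV, where the median over all gene ends was 0.00674, 0.0579 and 0.00913 in the same order. The share of member ends at or above the minimum was 24.5% in Braf Base medium, 28.8% in Braf full medium and 17.4% in EV, against 12.8%, 16.5% and 11.9% of all gene ends.

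The Braf Base medium library was set against EV first, because these libraries have nearly equal backgrounds. Cre, medium and selection differ together between them and cannot be told apart. Coverage was gained at an end of 23 of the 92 potassium channel genes (25%), where 6.19% of all genes gained, and lost at an end of 4 (4.35%), where 2.61% of all genes lost. In DNA from many cells, methylation in more cells and at more sites per cell cannot be told apart. The gains were led by Kv alpha subunits of the Kcna to Kcnd families, which form the voltage-gated pores. With background subtracted the gained genes numbered 24 and with equal library totals 27, all of the 23 among them both times. All genes gained 6.13% and 7.46% under these scalings. The lost members numbered 4 with background subtracted, against 2.66% of all genes, and 5 with equal totals, against 2.45%. The median log2 ratio of the 184 ends was 0.08 and that of all gene ends 0.00.

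**Figure D1:**
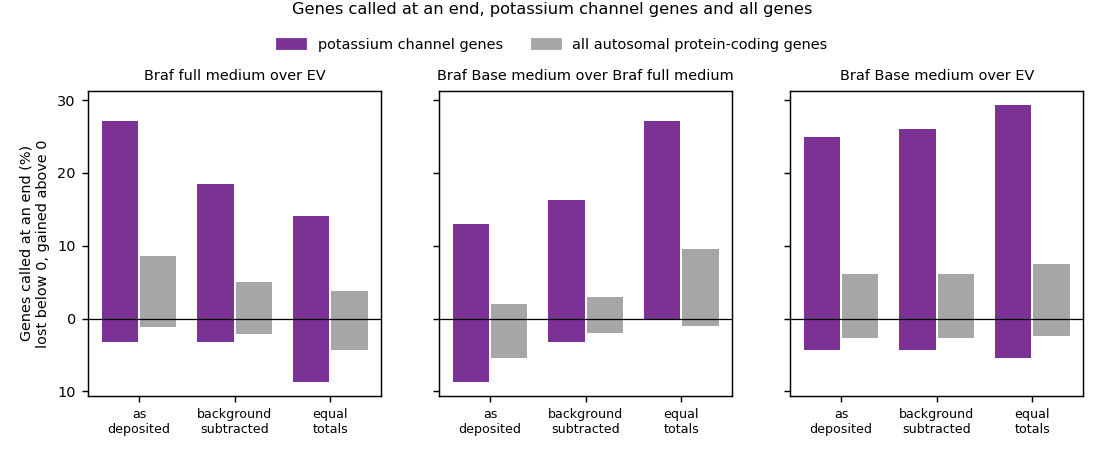
Percentage of genes gained (above 0) and lost (below 0) at an end, for the 92 potassium channel genes and for all autosomal protein-coding genes, in the 3 comparisons and under 3 scalings. For Braf Base medium over EV the potassium channel bars for gains stand at 25 to 29.3%, those of all genes at 6.13 to 7.46%.

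The Braf full medium library, set against EV, had gains at 25 of 92 members (27.2%), against 8.55% of all genes, and losses at 3 (3.26%), against 1.13%. Cre itself and the allele it activates cannot be told apart between these libraries. The raised background of the full medium library enters here. Of the 26 gained ends, 8 had a coverage under 0.179, which is 3 times the mean per bin. With background subtracted, 17 of the 25 genes were gained, against 5.05% of all genes, and with equal totals 13, against 3.81%. Among those no longer gained with background subtracted were Kcnd3, Kcnh4, Kcnh8, Kcnj4, Kcnj10, Kcnj11 and Kcnma1, and equal totals also ended the calls of Kcna3, Kcnh7 and Kcnk12. The lost members numbered 3 with background subtracted, against 2.1% of all genes, and 8 with equal totals, against 4.28%.

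The Base medium library of Braf organoids, set against their full medium library, had gains at 12 members (13%), against 2.02% of all genes, and losses at 8 (8.7%), against 5.4%. With background subtracted 15 members gained, against 2.92% of all genes, and 3 lost, against 2.02%, and the losses of Kcnh4, Kcnh6, Kcnj11, Kcnma1 and Kcnq3 were among those no longer called. With equal totals 25 gained, against 9.54% of all genes, and 0 lost, against 0.992%. The median log2 ratio of the 184 ends was 0.60 for full medium over EV and -0.51 for Base over full medium, close to the 0.66 and -0.61 of all gene ends. The 3 comparisons share libraries, so the values of each member in the 3 libraries are given side by side below.

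Among Kv alpha subunits, 11 of 26 gained over EV in Braf Base medium and 7 in Braf full medium, and none was lost in either. Of all genes 6.19% and 8.55% gained, and 2.61% and 1.13% were lost. The Kcna to Kcnd families, whose subunits form working pores, held 10 of the 11 and all of the 7 among their 16 genes. The silent modifier families Kcnf, Kcng, Kcns and Kcnv had 1 and 0 among their 10. This split was made after the values were seen.

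Kcnd3, an A-type channel subunit that repolarises heart and neurons, had the largest log2 ratio of any member end for Base medium over EV. Coverage at its start end, at position 105451890 on chromosome 3, was 1.4 in Braf Base medium, 0.129 in Braf full medium and 0.0274 in EV. Base medium stood 51-fold over EV (95% interval 16.8 to 512) and 10.8-fold over Braf full medium (6.02 to 21.3). The antisense non-coding gene Kcnd3os shares this window, and its own start had 1.4, 0.151 and 0.0183 in the same order. The sister gene Kcnd2, with its start end at 21215346 on chromosome 6, had 2.16 in Braf Base medium, 0.958 in Braf full medium and 0.151 in EV. Its Base medium coverage was 14.3-fold that of EV (8.4 to 27.8) and its full medium coverage 6.36-fold (3.61 to 12.7).

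Shaker-type subunits of the Kcna family differed from one another. Kcna3, a channel of lymphocytes and neurons, had 2.2 at its start end on chromosome 3 in Braf Base medium, 1.09 in Braf full medium and 0.383 in EV. Kcna6 had 1.5, 0.285 and 0.119 at its start end on chromosome 6 and 2.01, 0.437 and 0.219 at its annotated start, 160 bases inside. The high end of its neighbour Kcna1 had 0.381, 0.0891 and 0.0137. Kcna5, in the same cluster, was not called, with 0.0876, 0.0668 and 0.0684 at its start end. The start end of Kcna2, next to Kcna3, had 0 in Braf Base medium, 0.0846 in Braf full medium and 0 in EV, while its annotated start inside the gene was gained in full medium over EV and is given with the internal starts. Kcna4, Kcna7 and Kcna10 were below the minimum at both ends in all 3 libraries.

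Shaw-type Kcnc subunits serve fast-spiking neurons. The start end of Kcnc4 on chromosome 3 had 0.637 in Braf Base medium, 0.401 in Braf full medium and no overlap in EV, at least 18.7-fold and 11.8-fold higher when 3 reads are taken as the limit of a count of 0. Kcnc1 had 0.428, 0.111 and 0 at its start end on chromosome 7. Base medium was at least 12.6-fold over EV there. At the annotated start of Kcnc1, 249 bases inside, the values were 0.623, 0.192 and 0.151, so that the bound holds for the end alone. Kcnc4 at its annotated start, 1389 bases inside, had 0.724, 0.552 and 0.0137. Kcnc2 was not called at an end. Of its 4 annotated starts, the 3 that lie 1223 to 1375 bases inside the gene, with overlapping windows, had 1.03 to 1.15 in Braf Base medium, 0.223 to 0.254 in Braf full medium and 0.479 to 0.538 in EV.

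Kcnb2, a delayed rectifier of neurons, was highest in full medium, with 0.249 in Braf Base medium, 0.499 in Braf full medium and 0.0183 in EV at its low end. The 1 silent modifier gained was Kcns3, with 1.05, 0.477 and 0.297 at its start end. Kcng3 and Kcnf1 were covered in all 3 libraries without a call, Kcng3 with 0.69, 0.793 and 0.607 at its start end and Kcnf1 with 0.461, 0.437 and 0.265 at its high end.

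Kcnd3, Kcna3 and Kcnc4 lie within the same stretch of chromosome 3, where background coverage within 5 Mb to each side was also higher in Braf Base medium than in EV. The local log2 ratio, relative to the genome, was 0.66 at Kcnd3, 0.59 at Kcna3 and 0.57 at Kcnc4. With it taken off, the log2 ratios of Base medium over EV were 3.40, 1.76 and 2.97, against 4.07, 2.35 and 3.54 before. All 27 ends called in this comparison kept a log2 ratio beyond 1 in size after this correction.

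**Figure D2:**
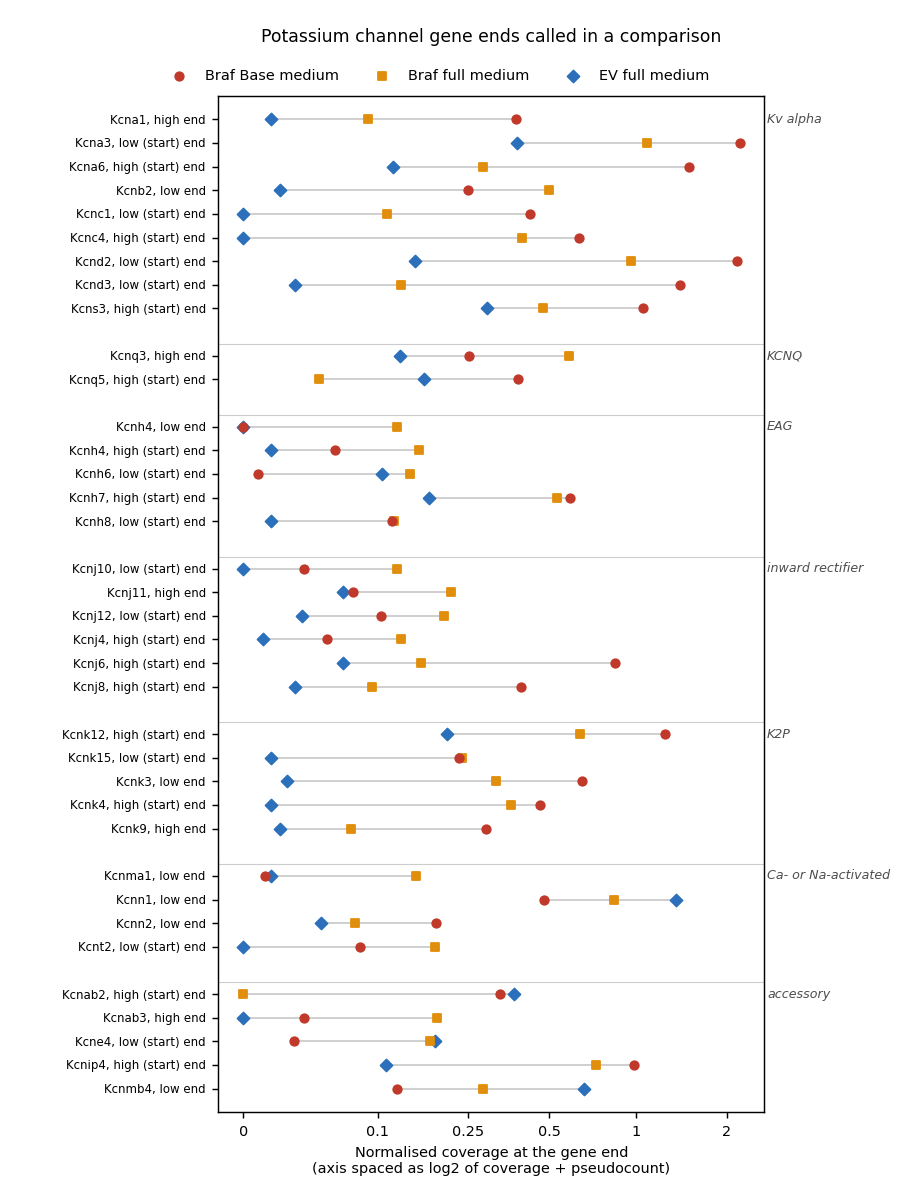
Normalised coverage at 36 potassium channel gene ends called in at least 1 of the 3 comparisons, by subfamily, in Braf Base medium (circles), Braf full medium (squares) and EV (diamonds), with start marking a start end; 1 library each, with no error bars. In the Kv alpha block EV is the lowest of the 3 at every end, while in the EAG and inward rectifier blocks Braf full medium is often the highest.

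Bins around annotated starts showed where the gained coverage was highest. At Kcnd3 the highest 200-bp bin within 1 kb of the start lay 600 bp downstream in Braf Base medium and reached 5.45. Braf full medium peaked at 0.392, 400 bp downstream, and EV at 0.0502, 400 bp upstream. At Kcna3 the peak lay 600 bp downstream in both Braf libraries and reached 7.74 in Braf Base medium and 4.26 in Braf full medium. EV peaked there at 1.15, 400 bp downstream. The Braf Base medium peaks of both genes lie downstream of the promoter sequences printed above. At Kcnj8 the highest bin lay 400 bp upstream in each library, beyond its printed sequence. It reached 1.59 in Braf Base medium, 0.245 in Braf full medium and 0.1 in EV. At Kcnj6 the peak of 3.45 in Braf Base medium lay in the bin of the start itself. Braf full medium (0.539) and EV (0.251) peaked 200 bp upstream. Kcnk12 had its highest bin at the start in Braf Base medium (2.59) but 800 bp upstream in Braf full medium (1.86) and EV (0.502). No bin at Kcnk5 exceeded 0.049 in any library.

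**Figure D3:**
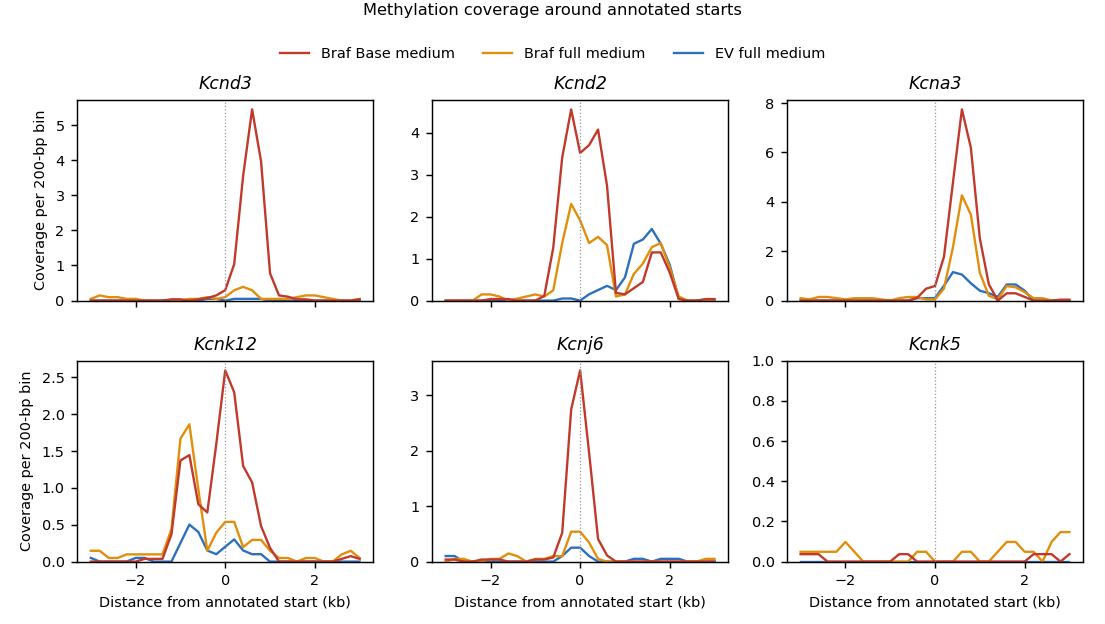
Coverage per 200-bp bin from 3 kb upstream to 3 kb downstream of 6 annotated starts, oriented along the gene, in the 3 libraries (the vertical axes differ). Peaks in Braf Base medium reach 5.45 at Kcnd3, 7.74 at Kcna3 and 3.45 at Kcnj6, and Kcnk5 stays flat.

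KCNQ channels carry slow currents that limit repeated firing. Kcnq3, a subunit of the neuronal M-current channel, had 0.253 in Braf Base medium, 0.588 in Braf full medium and 0.128 in EV at its high end, and was gained in full medium over EV and lost in Base against full medium. Kcnq5 went the other way, with 0.387 in Braf Base medium, 0.0445 in Braf full medium and 0.164 in EV at its high end. At its second annotated start, 708 bases inside the gene, the values were 1.36, 0.0624 and 0.26. The full medium over EV loss at the Kcnq5 high end had a log2 ratio of -1.10, which turned to 0.71 with a window of 500 bp.

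EAG-type channels include the cardiac channel Kcnh2, which was not called at an end. Of 8 genes, 1 gained over EV in Base medium, against 6.19% of all genes. This was Kcnh7, with 0.593 in Braf Base medium, 0.535 in Braf full medium and 0.173 in EV at its start end. Kcnh4 and Kcnh8 were gained in full medium at low coverage, Kcnh4 with 0.0573, 0.156 and 0.0137 and Kcnh8 with 0.118, 0.12 and 0.0137 at their start ends. Kcnh4 at its low end (0, 0.125 and 0) and Kcnh6 at its start end (0.00674, 0.143 and 0.105) were lost in Base against full medium. The Kcnh6 window also holds Ace3. The highest EAG coverage was at the high end of Kcnh3, which differed little among the libraries, with 0.899, 0.744 and 0.776.

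Of 15 inward rectifier genes, 2 gained in Base medium over EV, against 6.19% of all genes. Kcnj6, a G protein-gated channel subunit of neurons, had 0.849 in Braf Base medium, 0.16 in Braf full medium and 0.0639 in EV at its start end, 13.3-fold over EV (5.56 to 34.9). Kcnj8, the pore of the vascular ATP-sensitive channel, had 0.397, 0.0935 and 0.0274. Both were also gained in Base against full medium. Another 4 were gained in full medium over EV, against 8.55% of all genes, and stood at 0.125 to 0.214 there: Kcnj4, Kcnj10, Kcnj11 and Kcnj12. In Braf Base medium these ends had 0.0337 to 0.104, and in EV 0 to 0.0639, and of the 4 Kcnj11 was lost in Base against full medium. With background subtracted, and also with equal totals, Kcnj12 alone of the 4 was still gained, and the loss at Kcnj11 was no longer called.

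K2P channels, the background potassium leak, had 5 of 14 genes gained in Base medium over EV and 4 in full medium over EV. Of all genes 6.19% and 8.55% gained. Kcnk3, an acid-sensitive channel, had 0.653 in Braf Base medium, 0.321 in Braf full medium and 0.0228 in EV at its low end, and Kcnk12 had 1.25, 0.641 and 0.205 at its start end. Kcnk15 had nearly equal values in both Braf libraries, 0.229 and 0.236, against 0.0137 in EV. Kcnk4, a mechanically gated channel, had 0.465, 0.365 and 0.0137 at its start end. Its low end, not called, had 1.9 in Braf Base medium, 1.71 in Braf full medium and 2.77 in EV. The EV value was the highest of any member end in any library. Other ends were higher in the Braf libraries, up to 2.2 in Braf Base medium and 2.36 in Braf full medium. Kcnk9 had 0.293, 0.0713 and 0.0183 at its high end, where the Base over full medium log2 ratio of 1.43 turned to -1.05 within 500 bp. The larger part of the Kcnk9 signal lay further inside the gene and is given with the gene bodies.

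Calcium- or sodium-activated channels had 1 of 8 genes gained in Base medium over EV, against 6.19% of all genes. This was Kcnn2, a small-conductance channel on chromosome 18, with 0.185 in Braf Base medium, 0.0757 in Braf full medium and 0.0456 in EV at its low end. Kcnn1, of the same family, was lost, with 0.482, 0.842 and 1.36 at its low end, the end away from its start. Kcnt2 was gained in full medium over EV, with 0.0808, 0.183 and 0 at its start end. Kcnma1, the large-conductance channel of the colonic apical membrane, had 0.0101, 0.151 and 0.0137 at its low end, the end away from its start, and was gained there in full medium over EV and lost in Base against full medium. Neither call held with background subtracted, equal totals, a pseudocount 4 times as large or a minimum of 5 times the mean coverage. Its start end stayed at 0.0202, 0.0445 and 0.00456. Kcnu1, a sperm channel, was covered without a call at its high end, with 0.684, 0.659 and 0.748.

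Accessory subunits, which modify pores made by other genes, had 1 of 16 gained in Base medium over EV, close to the 6.19% of all genes. This was Kcnip4, a calcium-binding partner of Kcnd channels, with 0.98 in Braf Base medium, 0.731 in Braf full medium and 0.11 in EV at its start end. Both of its starts in the promoter table lie further inside, the nearer 239463 bases from this end, and neither was called. Kcnip2 differed by less than the threshold, with 1.12, 0.731 and 0.958. Kcnmb4, the neuronal subunit of the Kcnma1 channel, was lost at its low end (0.125, 0.285 and 0.662), 5.31-fold lower in Base medium than in EV (2.94 to 9.97). Kcne4 was also lost at its start end (0.0269, 0.174 and 0.183). Its Base over EV log2 ratio of -1.48 shrank to -0.085 within 500 bp and was not called there. The highest Kcne4 bin in each library lay 1000 bp downstream of the start, at the window edge. Kcnab3 was gained in full medium over EV, with 0.0337, 0.187 and 0 at its high end, and lost in Base against full medium.

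Kcnab2 had 0.33 in Braf Base medium, no overlap in Braf full medium and 0.374 in EV at its start end on chromosome 4, in a window shared with Nphp4. Its full medium over EV log2 ratio was -2.86. Background coverage within 5 Mb was lower in full medium too, with a local log2 ratio of -1.69, and the ratio with this taken off was -1.18.

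Of 7 channels with known roles in colonic or other secretory epithelia, Kcnma1 was called at an end, as given above, and 6 were not. Of all genes, 8.55% gained in full medium over EV and 5.4% were lost in Base against full medium. At the ends of Kcnq1, Kcne3, Kcnn4, Kcnk5, Kcnj13 and Kcnk1, values ran from 0 to 0.0505 in Braf Base medium, from 0.0178 to 0.0624 in Braf full medium and from 0 to 0.0319 in EV. None of these 12 ends reached the minimum for a call in any library. Most gene ends stayed below it too. Of all gene ends, 12.8% reached it in Braf Base medium, 16.5% in Braf full medium and 11.9% in EV. The bodies of Kcnn4 (0.548 in Braf Base medium, 0.435 in Braf full medium and 0.408 in EV) and Kcnk1 (0.176, 0.187 and 0.144) were covered in all 3 libraries without a call. Of 22 other genes of colonic ion transport, 3 gained in Base medium over EV and 1 was lost, where 6.19% of all genes gained and 2.61% lost. The epithelial sodium channel subunits Scnn1b (1.1 in Braf Base medium, 0.78 in Braf full medium and 0.0365 in EV at its low end) and Scnn1g (0.492, 0.508 and 0.0365) gained, as did Best2 (0.576, 0.437 and 0.123), and Scnn1a (0.0539, 0.156 and 0.205) was lost. Of 15 other genes that work with or resemble potassium channels, Dpp6, a partner of Kcnd channels (0.886, 0.396 and 0.329), and Hcn4, a pacemaker channel (0.269, 0.102 and 0.00913), gained over EV in Base medium and none was lost. These 2 of 15 stand beside the same shares of all genes.

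Coverage at annotated starts was then read against the CpG content of the promoter sequence, which the selection had not used. Starts with 18 or more CpG sites in 300 bases made up 33.3% of the 93 member starts and 41.5% of the 20085 starts of all genes in the table. In Base medium over EV, 11 of 31 CpG-dense member starts gained (35.5%), where 8.11% of all CpG-dense starts did. Of the 62 other member starts, 10 gained (16.1%), where 3.75% of all such starts did. These 10 include 3 starts of Kcnc2 with overlapping windows and 2 of Kcnip1, and they stand for 7 genes. Kcns3 has starts with overlapping windows in both classes and is counted in each. In full medium over EV the shares were 12 of 31 (38.7%) against 8.25%, and 5 of 62 (8.06%) against 5.76%. All these shares use coverage as deposited, so the raised background of full medium enters. Kcnd3, Kcnh4, Kcnh8 and Kcnj10, among the CpG-dense genes gained in full medium, were no longer gained at an end with background subtracted. In Base over full medium the shares were 7 of 31 (22.6%) against 3.32%, and 7 of 62 (11.3%) against 1.23%. The last 7 stand for 5 genes, with 3 starts of Kcnc2, and Kcnq5 and Kcns3 are counted in both classes. In Base medium over EV no CpG-dense member start was lost, against 0.887% of all such starts, and 2 of the others were, those of Kcne4 and an internal start of Kcnj6, against 1.81%. CpG-dense starts without a call included Kcnk5, whose window had 0.00674 in Braf Base medium, 0.0178 in Braf full medium and 0 in EV.

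**Figure D4:**
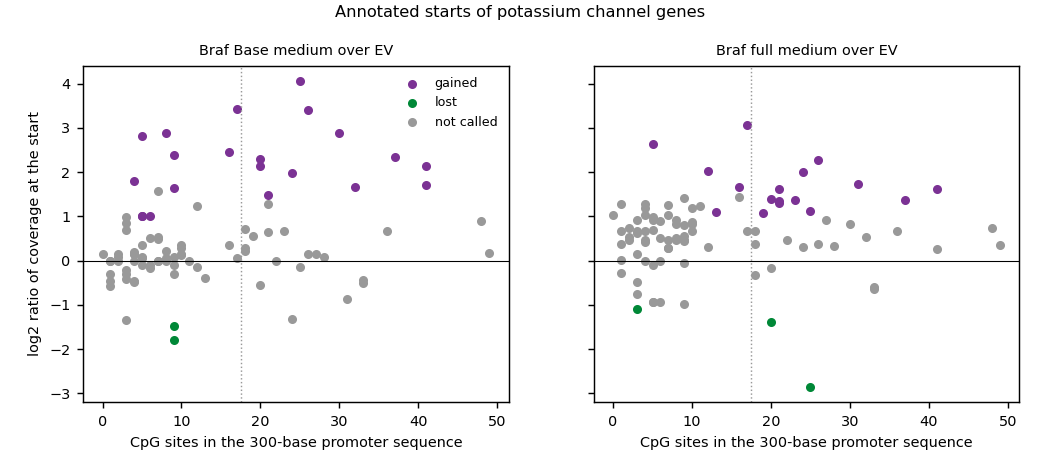
Log2 ratio of coverage within 1 kb of each of 93 annotated starts of 68 potassium channel genes, against the number of CpG sites in the 300-base promoter sequence, for Braf Base medium over EV and Braf full medium over EV; the dotted line separates starts with 18 or more. In the first panel 11 of 31 starts right of the line and 10 of 62 left of it are gained, and the 2 lost starts lie left of it.

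Starts inside genes showed changes that the gene ends did not. Kcnip1, which was not called at an end, had 0.744 in Braf Base medium, 0.405 in Braf full medium and 0.0867 in EV at a start 149662 bases inside the gene. Kcna2 had 0.0202, 0.428 and 0.0867 at a CpG-dense start 10684 bases inside the gene, gained in full medium over EV and lost in Base against full medium. Kcnj4 had 0.263, 0.165 and 0.0137 at a start 7270 bases inside the gene. Both Braf libraries were gained over EV at this start, while at an end Kcnj4 was gained in full medium alone.

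Gene bodies as a whole changed little. In Base medium over EV, 2 of 91 bodies gained (2.2%), against 1.11% of all gene bodies, and 3 were lost (3.3%), against 0.666%. The median log2 ratio was -0.05, and over all bodies 0.00. The gained bodies were Kcna1 (0.485 in Braf Base medium, 0.106 in Braf full medium and 0.102 in EV) and Kcnk9 (0.209, 0.124 and 0.0504). The lost ones were Kcne4 (0.0889, 0.519 and 0.562), Kcnj11 (1.25, 1.76 and 2.6) and Kcnk4 (0.0868, 0.192 and 0.29). These lost bodies spanned 1, 1.6 and 7 kb, and the gained ones 7.2 and 44.6 kb, while that of Kcnip4 spanned 1133 kb. A mean over a long body dilutes local change. In full medium over EV 1 body gained, against 2% of all bodies, and none was lost, against 0.204%. In Base against full medium Kcna1 gained, against 0.231% of all bodies, and Kcne4 was lost, against 1.38%.

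Within bodies, 293 of the 10383 1-kb tiles reached 5 times the mean coverage in some library, and 178 of these, in 57 genes, did so in all 3. With that minimum, 18 member tiles gained in Base medium over EV (0.173%), against 0.165% of all gene body tiles, and 51 were lost (0.491%), against 0.497%. In full medium over EV 20 gained and 30 were lost (0.193% and 0.289%, against 0.186% and 0.252%), and in Base over full medium 14 gained and 24 were lost (0.135% and 0.231%, against 0.0854% and 0.231%). The shares of member tiles gained and lost over EV were thus close to the background. Tiles gained in Base medium over EV with high coverage included 1 at Kcnk9, centred 2.11 kb inside the high end (6.34 in Braf Base medium, 1.95 in Braf full medium and 0.622 in EV) and 1 at Kcng2, 28 kb inside its low end (3.15, 1.11 and 0.271). Kcnn2 had 2.62, 0.265 and 0.151 in a tile 125 kb inside its high end. Tiles lost in the same comparison included 1 in Kcnh1 (1.59, 2.54 and 3.37, centred 38.7 kb from its high end), 1 in Kcnj12 (0.896, 1.62 and 2.09) and 1 in Kcnip4 (0.652, 1.26 and 1.72, centred 309 kb from its low end). Kcnab2 (0.259, 0.294 and 1.37) and Kcnk4 (0.326, 0.519 and 1.36) each had a tile lost over EV in both Braf libraries. In Base against full medium, Kcnk3 gained a tile 2.77 kb inside its high end (2.22 in Braf Base medium, 0.666 in Braf full medium and 1.13 in EV).

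The body of Kcnq1 holds a known imprinted control region. The promoter of the non-coding RNA Kcnq1ot1 lies in an intron of Kcnq1 and is normally methylated on the maternal copy alone. The tile at 143295001 to 143296000 on chromosome 7 beside this promoter had 6.84 in Braf Base medium, 5.23 in Braf full medium and 5.64 in EV, and within 1 kb of the Kcnq1ot1 start coverage was 3.84, 2.93 and 3.25. This was the most covered tile of the Kcnq1 body in all 3 libraries, and it was not called in any comparison. The Kcnq1 ends stayed at or below 0.0624.

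**Figure D5:**
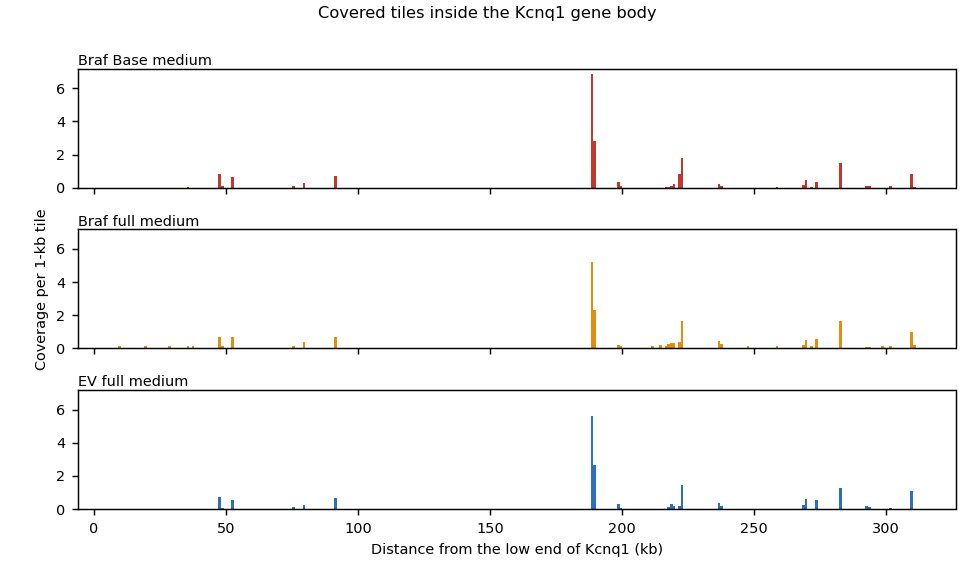
Coverage per 1-kb tile inside the Kcnq1 gene body against distance from its low end, in the 3 libraries, for tiles at or above the minimum of 0.119 in some library. The tallest bar, beside the Kcnq1ot1 start, reaches 6.84, 5.23 and 5.64 from the top panel to the bottom one.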

How the data were processed

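Methylated DNA of 3 organoid libraries had been captured from 100 to 200 ng of DNA sheared to fragments of 200 to 400 bp, and 50 bp were read from 1 end, per the labels' protocols. The submitters' processing notes name Bowtie2, with no version, and mm10. How bin values were made was not stated there or in the file. Values are on the log2 scale as deposited, for 12313737 autosomal bins of 200 bp (19 autosomes). Raising 2 to these gave a shared floor of 0.0153 plus whole steps, within 0.001 of a step in 100% of bins, with a step of 0.037 in Braf Base medium, 0.049 in Braf full medium and 0.0502 in EV. Steps were counted as read overlaps; coverage is overlaps times the step. Reads were estimated from lone reads, which covered 2.48, 2.42 and 2.49 bins on average, giving 5985362, 8648828 and 5041726. Ratio intervals are exact binomial (Clopper-Pearson) at 95%, on estimated reads; folds against 0 use 3 reads per window. How the authors chose the step is not given, so comparisons were repeated with equal totals and with background subtracted.

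Gene positions came from the RefSeq table of GRCm38.p6. Calls were made over all genes and only members printed. The members and lists were chosen with earlier results of these data known. The rule for named genes took, for each comparison, the gains and losses at ends up to 8 in each direction by size, each subfamily's highest end, the 5 leading bodies and body tiles, and 8 channels always; other called members were named after their values were seen. Some members enter the counts and are not reported by name here. The calling code was tested on simulated data. Python 3.11.15, numpy 2.4.6, pandas 2.3.3 and scipy 1.17.1 were used.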

Additional observations from a re-analysis of the deposited data

How the results depend on the processing

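With 1 library per group no replicate could be left out. No paired analysis was possible because each group held 1 library. The count of gained genes in Braf Base medium over EV was 23 as deposited and stayed within 1.5 times of that under a pseudocount 4 times as large, a minimum 5 times the mean, equal totals, background subtraction and a 500-bp window; with the start end alone, which 68 members had, it was 14 (5.2% of all genes), and 1 was lost (1.31%). Shares in parentheses are of all genes under the same setting. The 4 lost became 2 under the larger pseudocount (0.615%) and 2 under the larger minimum (1.32%). In full medium over EV the 25 gained became 11 with the larger pseudocount (2.86%), 13 with the larger minimum (3.38%), 13 with equal totals (3.81%) and 15 with the start end alone (6.56%), and the 3 lost became 1 with the larger pseudocount (0.319%) and 8 with equal totals (4.28%). In Base over full medium the 12 gained became 6 with the larger pseudocount (1.16%) and 25 with equal totals (9.54%). The 8 lost became 0 with the larger pseudocount (0.576%), 1 with the larger minimum (1.07%), 0 with equal totals (0.992%), 3 with background subtracted (2.02%) and 2 with the start end alone (3.49%). For gene bodies, full medium over EV had 0 gained with the larger pseudocount (0.495%), equal totals (0.815%) or background subtracted (1.2%), against 1, and 5 lost with equal totals (1.49%) and 1 with background subtracted (0.616%), against 0. Base over full medium had 4 bodies gained with equal totals (3.14%) and 2 with background subtracted (0.468%), against 1. Base over EV had 1 gained (0.501%) and 1 lost (0.16%) with the larger pseudocount, against 2 and 3. Within 500 bp the log2 ratio at the Kcnq5 high end turned to 0.71 in full medium over EV. That at the Kcnk9 high end turned to -1.05 in Base over full medium, and that at the Kcne4 start end shrank to -0.085 in Base over EV. The cause of these changes was not tested. The counts with the start end alone rest on fewer genes. At low ends counting error is wide: in the EV library, 61 of 184 member ends had no overlap.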
